A study of Mus musculus with 4 samples.

Results

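The genes described here are 32 genes of cholesterol and fatty acid synthesis under the SREBP transcription factors, out of 55487 genes counted in sorted mouse skeletal stem cells. They comprise 18 enzymes of the sterol pathway, 6 genes of SREBP control and sterol transport, and 8 fatty acid enzymes. The set was proposed because Sqle and Stard4 were lower after ovariectomy in these same libraries, and the other members were taken by name as genes of the same pathway. It does not hold every enzyme of the pathway. All differences between the groups are therefore given as a description. Members that passed a p threshold are named or counted as part of it, and no p-value of a single member is printed. All 32 genes had enough reads to enter the fit of all genes, in which 17120 genes were compared.

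The series compared wild-type (WT) mice after sham surgery, the control operation, with wild-type mice after ovariectomy (Ovx), with 2 bulk RNA-seq libraries per group. Removing the ovaries takes away most circulating oestrogen, and it is widely used in mice to model bone loss after menopause. Cells were released from the metaphyses of long bones with collagenase and sorted after staining for CD200, CD105, 6C3, CD90, CD51, Tie2, Ter119 and CD45, and all 4 libraries carry the time 8 weeks. The sources used here give neither strain nor age, nor whether 8 weeks means an age or an interval from surgery. Whether the 2 libraries of a group are separate animals is also not stated, so their spread may be technical. Paired values are given in the order of the replicate numbers.

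Cells make cholesterol from acetyl-CoA through the mevalonate pathway, squalene and lanosterol. When sterols are low in the endoplasmic reticulum, the escort protein Scap carries the SREBP precursors to the Golgi, where they are cleaved to active transcription factors, and when sterols are high the Insig proteins hold Scap back. The product of Srebf2 mainly drives sterol genes, and that of Srebf1 mainly fatty acid genes. In the skeleton, inherited defects of Dhcr7, Nsdhl and Ebp are known to disturb limb and cartilage development, and the enzyme encoded by Fdps is the target of nitrogen-containing bisphosphonates.

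Totals lay between 18291436 and 23721078 counts per library. Over all genes tested, edgeR called 1.20% lower and 2.98% higher at an adjusted p under 0.05. At an unadjusted p under 0.05 the shares were 7.83% and 10.6%. DESeq2 called 2.84% lower and 5.43% higher, and limma-voom 1.83% and 3.7%. Chondrocyte markers made up a large part of the RNA, and 7 of the 8 listed were called lower after ovariectomy by edgeR, with a summed level of 95763 to 103584 CPM (counts scaled to the size of each library) in the sham pair, beside 54963 to 60455 CPM in the Ovx pair. Of 8 osteoblast markers, 4 were called lower and 1 higher, with sums of 84123 and 113295 CPM in the sham pair, against 75021 and 68861 CPM in the Ovx pair. Some markers of blood cells moved the other way: edgeR called 3 of 7 erythroid genes tested and 2 of 8 granulocyte genes higher. Erythroid sums were 21.9 to 38.5 CPM in the sham pair, against 119.9 to 161.3 CPM in the Ovx pair. Alas2 was the 1 erythroid gene tested that overlapped between the groups (log2 fold change -0.40). Granulocyte sums were 91.6 to 145.5 CPM in the sham pair and 185.4 to 294.3 CPM in the Ovx pair. Much of that difference was Mpo, at 3.39 and 0.490 CPM in the sham pair, against 58.3 and 110.3 CPM in the Ovx pair. Of the 8 granulocyte genes, 5 overlapped between the groups. Rhag, an erythroid membrane protein, had 0 counts in both sham libraries. Summed macrophage markers were at 65.6 to 77.3 CPM and 103.2 to 141.5 CPM, and summed endothelial markers at 13.2 to 49.6 and 43.8 to 68.2 CPM, with 0 of 8 called by edgeR or limma-voom in either list. At an unadjusted p under 0.05 edgeR had 4 macrophage genes and 1 endothelial gene higher, and DESeq2 called 2 macrophage genes higher, Lyz2 and Cd14, and 0 endothelial genes. Adipocyte markers, whose cells are rich in fatty acid enzymes, summed to 10.1 and 10.5 CPM in sham 1 and 2, with 14.7 and 14.6 CPM in ovariectomy 1 and 2. Over all genes tested 25.5% were higher without overlap, and so were 4 of the 5 adipocyte genes that could be tested. Among them edgeR called 0, with 1 at an unadjusted p under 0.05, limma-voom called 0, and DESeq2 called 1 higher, Cfd, which had 0 counts in both sham libraries, 58 in ovariectomy 1 and 16 in ovariectomy 2. Cidec had 0 counts in both sham libraries as well, with 9 and 20 in the Ovx pair, and Retn had 0 in all 4. Proliferation genes were at 90.3 to 112.5 CPM in the sham pair, against 111.8 to 117.4 CPM in the Ovx pair, with 0 of 8 called by edgeR, DESeq2 or limma-voom and 1 higher at an unadjusted p under 0.05. Of the 7 genes of sort antigens, 6 could be tested and edgeR called 1, Cd200, which was lower, while the median log2 fold change of the list was 0.57. Eng (CD105) was at 21.6 and 52.1 CPM in sham 1 and 2, with 75.2 and 83.1 CPM in ovariectomy 1 and 2. Enpep (6C3) was at 1.52 and 1.91 against 4.40 and 3.64 CPM, and Tek (Tie2) at 0.223 and 5.52 against 7.53 and 9.76 CPM. These 3 were higher without overlap and not called by edgeR, whereas Itgav (CD51) and Ptprc (CD45) overlapped between the groups. At an unadjusted p under 0.05 edgeR had 2 genes of the list higher. Of the list, limma-voom called 1 gene higher and DESeq2 called 0 higher. The part of these marker shifts in the results below was not tested, and in bulk RNA fewer cells of a type and less RNA per cell cannot be told apart.

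The proximal promoters of the set are shown first, because SREBP acts there together with 2 partners, NF-Y and Sp1. RefSeq promoter windows of GRCm38.p6, from 250 bases before to 50 bases after a gene's start, were found for 25 of the 32 genes. The motif counts leave out the other 7, which are Sqle, Stard4, Scd2, Scd1, Fads1, Fdft1 and Fdps, and so 3 of the 4 genes called lower by edgeR. The windows of Hmgcs1 (chr13:119690101-119690400, plus strand), Msmo1 (chr8:64733529-64733828, minus strand), Srebf2 (chr15:82147019-82147318, plus strand) and Fasn (chr11:120824498-120824797, minus strand) stand for an early sterol enzyme, a late one, the master regulator and the fatty acid synthase. Each is written along the gene's own strand, with capitals for matches to the sterol regulatory element (SRE) core TCACNCCAC, to its shorter form CACNCCA and to the NF-Y box CCAAT, on either strand, so that a box on the opposite strand reads ATTGG.
Hmgcs1: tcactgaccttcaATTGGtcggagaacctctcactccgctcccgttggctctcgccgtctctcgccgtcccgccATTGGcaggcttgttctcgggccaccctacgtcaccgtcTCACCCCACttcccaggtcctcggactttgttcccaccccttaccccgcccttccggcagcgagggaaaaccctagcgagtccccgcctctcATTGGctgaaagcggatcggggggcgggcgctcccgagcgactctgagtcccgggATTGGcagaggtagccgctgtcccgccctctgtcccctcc
Msmo1: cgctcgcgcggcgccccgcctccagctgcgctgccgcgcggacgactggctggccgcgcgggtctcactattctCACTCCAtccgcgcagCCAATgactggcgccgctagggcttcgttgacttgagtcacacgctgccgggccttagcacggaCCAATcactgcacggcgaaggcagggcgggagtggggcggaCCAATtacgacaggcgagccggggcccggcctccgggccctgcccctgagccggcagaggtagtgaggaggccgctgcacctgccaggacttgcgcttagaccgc
Srebf2: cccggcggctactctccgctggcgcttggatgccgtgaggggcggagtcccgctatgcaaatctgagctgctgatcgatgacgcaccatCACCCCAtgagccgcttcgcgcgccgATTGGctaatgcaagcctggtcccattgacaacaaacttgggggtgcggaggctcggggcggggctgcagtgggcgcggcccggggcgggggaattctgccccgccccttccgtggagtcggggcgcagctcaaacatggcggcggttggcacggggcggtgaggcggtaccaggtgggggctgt
Fasn: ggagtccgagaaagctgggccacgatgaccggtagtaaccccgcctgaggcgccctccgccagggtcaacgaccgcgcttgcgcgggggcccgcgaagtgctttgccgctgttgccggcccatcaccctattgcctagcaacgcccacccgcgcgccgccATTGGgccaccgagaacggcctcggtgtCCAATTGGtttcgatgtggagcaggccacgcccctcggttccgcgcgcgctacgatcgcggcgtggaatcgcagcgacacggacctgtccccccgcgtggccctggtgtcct

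Hmgcs1 held the full SRE core, whose first base lay 137 bases before the start, and 4 NF-Y boxes. Its window was the 1 of 33 windows of the members with that core (3.03%), against 1.24% of all 32851 windows of the table. Msmo1 carried 3 NF-Y boxes and the shorter core, Srebf2 carried 1 NF-Y box 135 bases upstream and the shorter core 161 bases upstream, and Fasn carried 3 NF-Y boxes and neither core. The 8-letter block in the Fasn window is a pair of overlapping NF-Y boxes on opposite strands.

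Across the set, the NF-Y and Sp1 boxes were the motifs found in most windows. Counted by window, 21 of 33 windows of the members held an NF-Y box (63.6%), compared with 37.4% of all windows and 38.2% of the 21263 windows of protein-coding genes. The Sp1 box GGGCGG stood in 25 of 33 windows (75.8%), against 46.2% of protein-coding windows, and the palindromic E-box CACGTG in 6 (18.2%), against 7.84%. The windows of Scap overlap, so its E-box and an Sp1 box are each counted in both. An E-box was found in 5 of the 25 members. The shorter SRE core, which lies within the full one, was in 7 of 33 (21.2%), against 18% of protein-coding windows. Counted by gene, 20 of 25 members had an NF-Y box, among them 14 of the 15 sterol enzymes with a window, Acat2 being the exception. Of the 5 fatty acid enzymes with a window, Fasn and Acly had one. Both strands were searched and no test was run. A match is a description of the letters, and a window without one says nothing about binding.

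**Figure D1:**
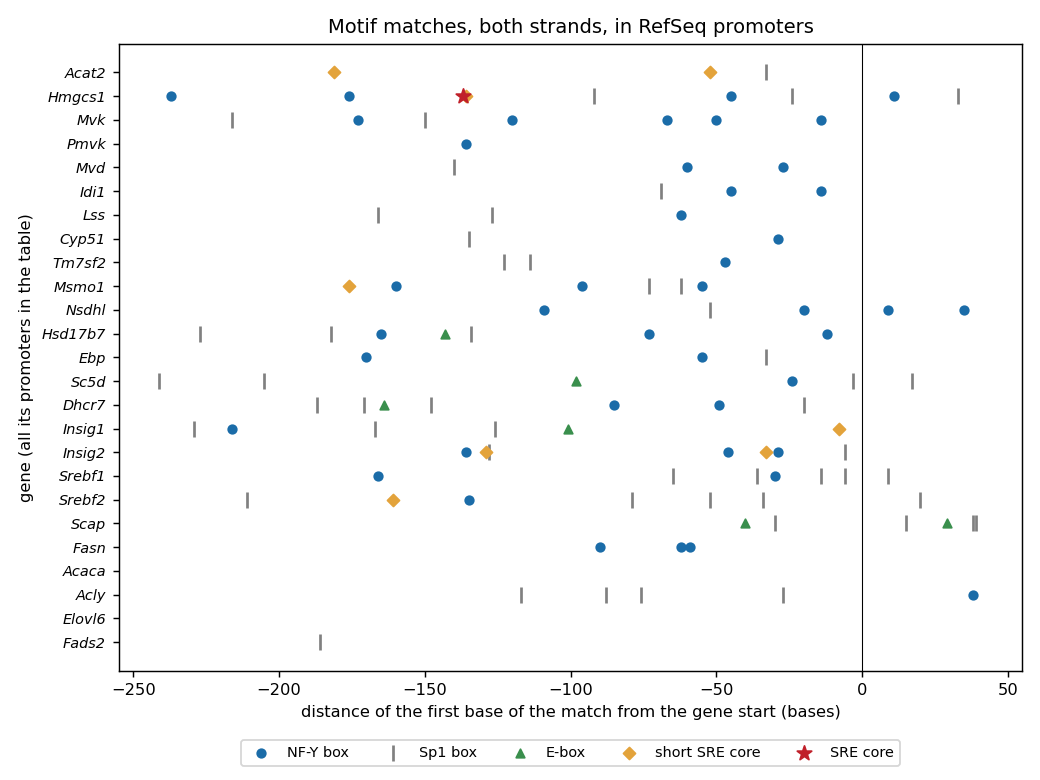
Positions of motif matches on either strand in the RefSeq promoter windows of the 25 genes that had one; the horizontal axis gives the distance in bases of the first base of a match from the gene start, and each row is a gene with all its windows. NF-Y boxes (blue circles) appear in 20 of the 25 rows, and the full SRE core (red star) in the Hmgcs1 row alone.

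Levels per exon length, as TPM (counts per exon length scaled to 1 total, for comparison between genes), differed widely within the pathway. The length counts all annotated exon bases of a gene, which can far exceed its longest transcript. It was 6144 against 2969 bases for Msmo1, 10787 against 6992 for Lss and 17074 against 9513 for Acaca. The order of genes and the ratios between genes depend in part on that length. In sham cells the highest were Fads2 at 204.7 ± 29.1 TPM (mean ± SD, n = 2, as for all means here), Insig1 at 199.1 ± 17.0 TPM and Acly at 187.0 ± 19.6 TPM. These 3 did not differ beyond their spread. Hmgcs1 (153.3 ± 5.34 TPM), Cyp51 (137.1 ± 18.2 TPM) and Sqle (124.0 ± 9.02 TPM) were the most abundant sterol enzymes by this length. The libraries of Cyp51 and Sqle overlapped. Tm7sf2 at 2.54 ± 0.385 TPM, Acaca at 2.62 ± 0.0740 TPM and Fdps at 3.45 ± 0.166 TPM were the lowest. Acaca encodes the carboxylase that commits acetyl-CoA to fatty acid synthesis, and with Fasn at 9.82 ± 0.571 TPM the 2 enzymes that build the fatty acid chain were far below the desaturases that act on it. Tm7sf2 encodes a sterol reductase. For several genes reads may be split with other annotated genes, either near-identical copies or genes that overlap at the same place. At 95% identity or more, other transcripts matched 65.6% of the longest Acat2 transcript (its neighbour Acat3) and 64.3% of Acaca. The share was 54.7% for Fdft1, 33.3% for Idi1, 13.5% for Elovl6 and 11.4% for Scd2 (by Scd1). It was 18.9% for Scap, 16.2% for Hmgcs1 and 16.7% for Fdps. In these genes the largest match was an overlapping gene, 5830462I19Rik, Gm48342 and Gm43738 in turn. Fdps shares 26.7% of its exon length with Gm43738. Their levels are uncertain for that reason.

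**Figure D2:**
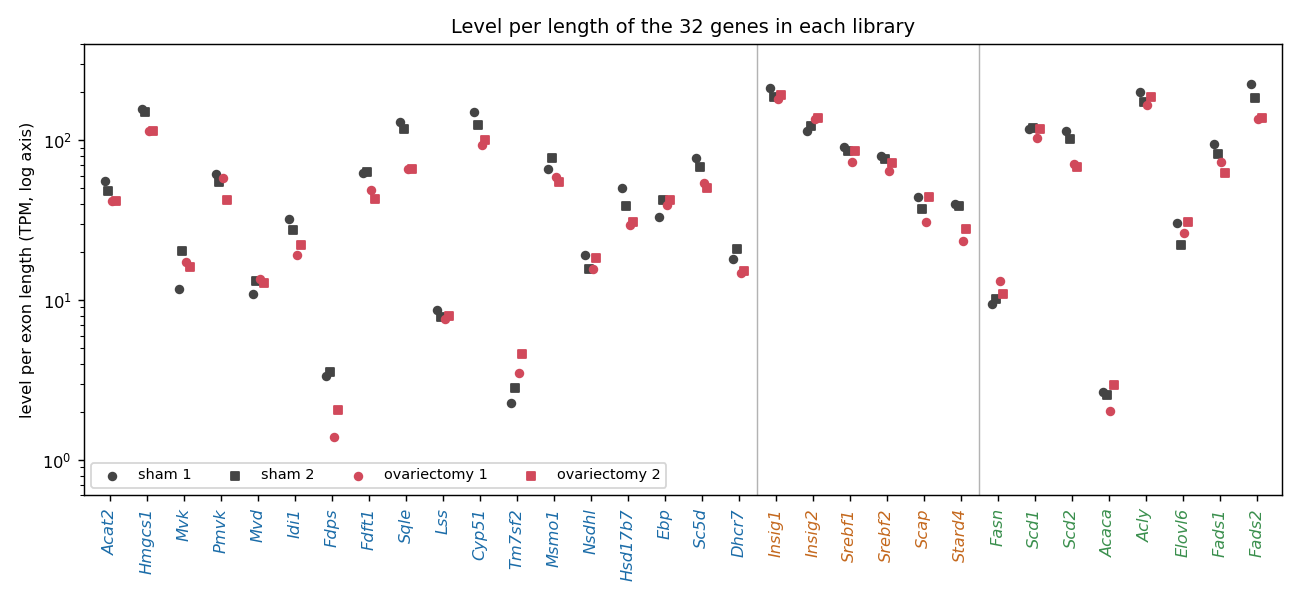
Level per exon length (TPM, log axis) of each of the 32 genes in the 4 libraries, sham in grey and ovariectomy in red, in pathway order with sterol enzymes, SREBP control genes and fatty acid enzymes separated by lines. Fads2, Insig1 and Acly lie at the top, Tm7sf2, Acaca and Fdps at the bottom, and the red points of Sqle lie below the grey ones.

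Read against sham, 4 of the 32 genes were called lower after ovariectomy and 0 were called higher by the quasi-likelihood F test of edgeR over all genes, with an adjusted p under 0.05 as the threshold. At an unadjusted p under 0.05 there were 16 lower and 0 higher. Over all genes tested 1.20% were called lower and 2.98% higher, and 7.83% were lower and 10.6% higher at an unadjusted p under 0.05. The 4 were Sqle and Stard4, which prompted the choice of the set, and Scd2 and Fads2. DESeq2 called 10 of the 32 lower (2.84% of all genes) and limma-voom 8 (1.83%), and neither called a member higher. Both ovariectomy libraries lay below both sham libraries for 21 of the 32 genes and above them for 2, while over all genes 23.9% lay below and 25.5% above. Because the set was picked from this contrast, nothing is read from these shares. The calls needed both ovariectomy libraries: without either one, edgeR called 0 genes in the whole table, with 1788 (without ovariectomy 1) and 1618 (without ovariectomy 2) at an unadjusted p under 0.05, and the lone ovariectomy library was then assumed to vary like the sham pair. The members called lower numbered 2 with library totals as the only scaling, beside 0.911% of all genes tested.

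By subgroup, the median log2 fold change (ovariectomy over sham) was -0.46 for the sterol enzymes, -0.24 for the SREBP control genes and -0.21 for the fatty acid enzymes, beside -0.02 for all genes tested. Values below 0 were found for 16 of 18, 5 of 6 and 6 of 8 genes, beside 8780 of the 17120 genes tested. Library totals as the only scaling shifted the median of all genes by 0.11, and relative to the median of all genes the subgroup medians were then -0.45, -0.23 and -0.19, as they were with the reported scaling. Under library totals the share of higher genes among all calls was 82.2%, against 71.2% with the reported scaling. Summed over the 18 sterol enzymes, the level was 1246 and 1199 CPM in sham 1 and 2 and 853.0 and 796.0 CPM in ovariectomy 1 and 2. The fatty acid enzymes summed to 1136 and 1022 CPM in the sham pair, against 842.0 and 828.6 CPM in the Ovx pair. All members together took 0.283 to 0.311% of the counts of a sham library and 0.239 to 0.244% of those of an ovariectomy library.

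**Figure D3:**
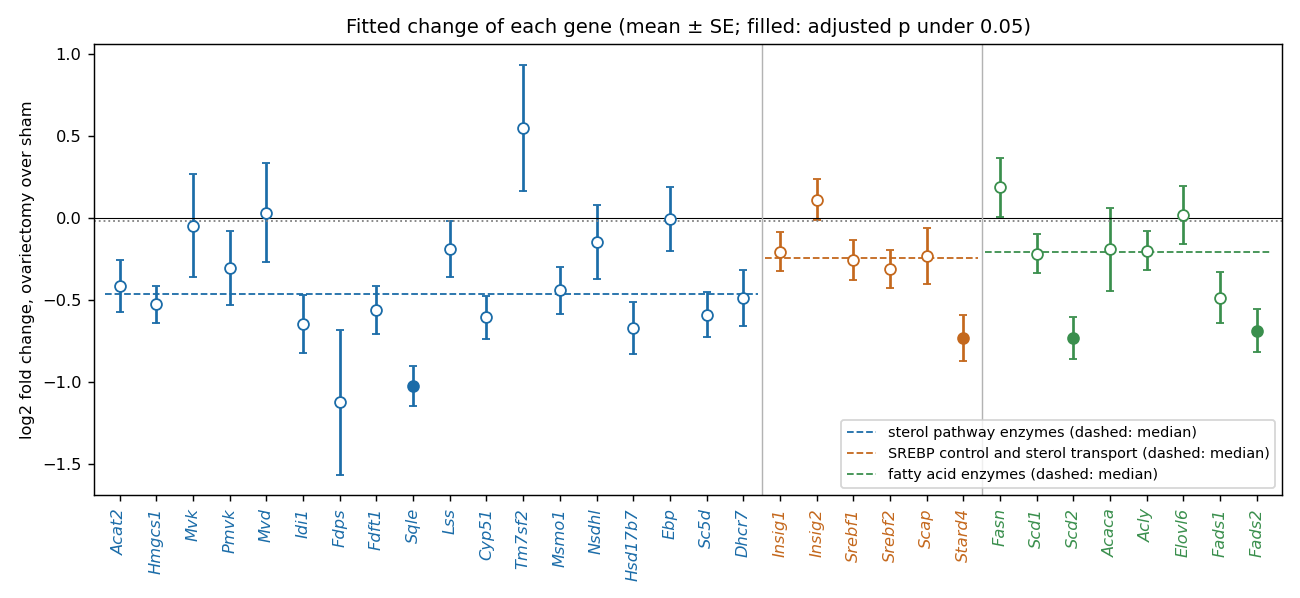
Fitted log2 fold change (ovariectomy over sham) with its SE for each gene in pathway order; filled points passed the threshold, dashed lines mark the subgroup medians and the dotted line the median of all genes tested. Sqle, Stard4, Scd2 and Fads2 are filled, and the median of the sterol enzymes (-0.46) lies lowest.

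In the mevalonate arm, which leads from acetyl-CoA to farnesyl pyrophosphate, no gene passed the edgeR threshold. Hmgcs1 makes the HMG-CoA from which mevalonate is formed. Sham 1 and 2 had 215.5 and 209.7 CPM of it, and ovariectomy 1 and 2 had 151.8 and 143.2 CPM, a log2 fold change of -0.53 ± 0.11 SE. The groups lay well apart, and Hmgcs1 was called lower in 7 of 13 alternative settings. Idi1, the isomerase of isopentenyl pyrophosphate, was at 33.6 and 29.4 CPM in the sham pair, against 19.3 and 21.0 CPM in the Ovx pair (-0.65 ± 0.18 SE), again without overlap. Fdps, which makes farnesyl pyrophosphate, had the most negative value of the set and the widest error, at 4.19 and 4.59 CPM against 1.69 and 2.34 CPM (-1.12 ± 0.44 SE). Its counts were low, 94 and 103 in the sham pair, beside 40 and 45 in the Ovx pair.

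The other 4 mevalonate genes showed smaller values. Acat2, the thiolase that joins acetyl-CoA units, was at 42.1 and 37.2 CPM in the sham pair, against 30.7 and 28.7 CPM in the Ovx pair (-0.42 ± 0.16 SE). Its groups did not overlap, and Acat3 shares much of its sequence. The kinases Mvk and Pmvk and the decarboxylase Mvd, which act in series on mevalonate, overlapped between the groups, with log2 fold changes of -0.05 ± 0.31, -0.31 ± 0.22 and 0.03 ± 0.30 SE. For Mvk the sham libraries stood on either side of the ovariectomy libraries, at 9.32 and 16.6 CPM against 13.3 and 11.7 CPM. The signs of Mvk and Mvd turned between settings.

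The 3 steps to squalene and lanosterol held 1 gene called by edgeR, Sqle. Fdft1, squalene synthase, was at 78.7 and 81.9 CPM in the sham pair, against 59.3 and 49.4 CPM in the Ovx pair (-0.56 ± 0.14 SE), with no overlap, and was called lower in 3 of 13 alternatives, DESeq2 among them. Sqle (ENSMUSG00000022351, chromosome 15, 59315077 to 59331192, plus strand, GRCm38) encodes squalene epoxidase, which opens the way to the sterol ring. It had 216.0 and 199.1 CPM in sham 1 and 2 and 105.2 and 98.9 CPM in ovariectomy 1 and 2. The means were 207.5 ± 11.9 and 102.1 ± 4.42 CPM, a level 2.03-fold lower after ovariectomy (log2 fold change -1.02 ± 0.12 SE). Every alternative kept the value between -1.07 and -0.92. Lss, lanosterol synthase, is the next enzyme and was not called, at 27.8 and 26 CPM in the sham pair, against 23.9 and 23.4 CPM in the Ovx pair (-0.19 ± 0.17 SE). Within each library the ratio of Sqle to Lss per exon length was 15.1 and 14.9 in the sham pair, beside 8.56 and 8.23 in the Ovx pair, with the ovariectomy ratios both below the sham ratios. The ratio of Sqle to Fdft1, the enzyme before it, was 2.09 and 1.85 in the sham pair, beside 1.35 and 1.53 in the Ovx pair. Sqle prompted the choice of the set by being lower, so lower ratios to less changed genes follow from that choice.

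Of the 8 enzymes that turn lanosterol into cholesterol, none passed the edgeR threshold. Without overlap, 5 lay lower, beside 23.9% of all genes tested. Cyp51, the lanosterol demethylase, was at 197.8 and 167.4 CPM in the sham pair, against 119.4 and 120.5 CPM in the Ovx pair (-0.61 ± 0.13 SE), and was called lower in 8 of 13 alternatives. Hsd17b7, a ketosteroid reductase, was at 76.3 and 60.5 CPM against 43.3 and 42.7 CPM (-0.67 ± 0.16 SE). Sc5d, the sterol desaturase, was at 112.3 and 101.6 CPM against 75.9 and 66.2 CPM (-0.59 ± 0.14 SE). All 3 were separated between the groups, and Hsd17b7 and Sc5d were each called in 6 of 13 alternatives. Msmo1, which removes methyl groups, was at 121.8 and 145.3 CPM in the sham pair, against 105.0 and 91.6 CPM in the Ovx pair (-0.44 ± 0.14 SE), called in 1 of 13, and Dhcr7, the last reductase of its branch, at 31.3 and 37.0 against 24.6 and 24 CPM (-0.49 ± 0.17 SE).

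The remaining late enzymes did not share that pattern. Ebp, the sterol isomerase, was at 23.0 and 29.9 CPM in the sham pair, against 26.1 and 26.5 CPM in the Ovx pair, a log2 fold change of -0.01 ± 0.19 SE. Nsdhl, a dehydrogenase of the demethylation complex, had -0.15 ± 0.23 SE. Both overlapped between the groups and turned sign between settings. Tm7sf2 was the 1 sterol enzyme whose ovariectomy libraries both lay above sham, at 2.99 and 3.78 against 4.44 and 5.51 CPM (0.55 ± 0.38 SE), from 67 to 106 counts per library.

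None of the genes for the SREBPs, Scap and the Insigs passed the threshold. Srebf2 was at 171.0 and 168.5 CPM in the sham pair, against 132.3 and 141.4 CPM in the Ovx pair (-0.31 ± 0.12 SE). Srebf1 was at 152.5 and 146.5 CPM against 118.2 and 131.9 CPM (-0.26 ± 0.12 SE). For both, the groups did not overlap. RNA levels do not show how much of either precursor was cleaved. Per exon length the ratio of Srebf2 to Srebf1 lay between 0.840 and 0.902 in all 4 libraries. Scap overlapped between the groups, at 98.0 and 84.5 CPM in the sham pair, against 66.6 and 88.8 CPM in the Ovx pair (-0.23 ± 0.17 SE).

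The 2 Insig genes had values of opposite sign. Insig1, itself an SREBP target, was at 195.0 and 176.5 CPM in the sham pair, against 161.1 and 161.2 CPM in the Ovx pair (-0.20 ± 0.12 SE). Insig2, which is less dependent on SREBP, was at 117.9 and 129.6 CPM in the sham pair, against 137.1 and 130.6 CPM in the Ovx pair (0.11 ± 0.12 SE). The Insig2 groups nearly touched. The ratio of Insig2 to Insig1 per exon length was 0.539 and 0.654 in the sham pair, beside 0.758 and 0.721 in the Ovx pair.

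Stard4 (ENSMUSG00000024378, chromosome 18, 33199355 to 33213862, minus strand), a cytosolic sterol carrier, was the 1 called gene of this subgroup. It had 66.2 CPM in both sham libraries and 37.7 and 42.0 CPM in ovariectomy 1 and 2, which makes it 1.66-fold lower (log2 fold change -0.73 ± 0.14 SE). With library totals as the only scaling the value was -0.63 and the call was lost.

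Among the fatty acid enzymes, 2 desaturase genes, Scd2 and Fads2, were called lower by edgeR, and DESeq2 called Fads1 lower in addition. Scd2 (ENSMUSG00000025203, chromosome 19, 44293674 to 44306864, plus strand) encodes a desaturase that places the first double bond into saturated fatty acids. It had 185.5 and 169.3 CPM in sham 1 and 2 and 112.4 and 101.3 CPM in ovariectomy 1 and 2, a 1.66-fold lower level (-0.73 ± 0.13 SE) that was called. Its neighbour and paralog Scd1 was at 172.8 and 177.3 CPM in the sham pair, against 145.2 and 156.1 CPM in the Ovx pair (-0.22 ± 0.12 SE), which did not pass. The ratio of Scd2 to Scd1 per exon length was 0.961 and 0.855 in the sham pair, beside 0.693 and 0.581 in the Ovx pair. The ovariectomy ratios were again both below the sham ratios, which restates the values of the 2 genes and is not a separate result.

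Fads2 (ENSMUSG00000024665, chromosome 19, 10062765 to 10101746, minus strand) and its neighbour Fads1 encode the front-end desaturases of polyunsaturated fatty acids. Fads2 had 221.6 and 185.1 CPM in the sham pair, against 129.5 and 123.2 CPM in the Ovx pair, a 1.61-fold lower level (-0.69 ± 0.13 SE) that was called. The call of Fads2 was lost with library totals (-0.58) and with the offset for GC content and length (-0.73). Fads1 was at 137.1 and 120.5 CPM against 102.2 and 81.6 CPM (-0.49 ± 0.15 SE), without overlap. It was not called by edgeR as reported, but was called lower by DESeq2 and with no filter. Per exon length the ratio of Fads2 to Fads1 was 2.36 and 2.24 in the sham pair, beside 1.85 and 2.20 in the Ovx pair.

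None of the 4 genes that supply, build or lengthen the fatty acid chain was called, as reported or in any of the 13 alternatives. Acly, which makes cytosolic acetyl-CoA from citrate for both pathways, was at 316.7 and 278.9 CPM in the sham pair, against 252.3 and 266.6 CPM in the Ovx pair (-0.20 ± 0.12 SE), lower without overlap and not called. Acaca was at 13.6 and 13.4 CPM against 9.94 and 13.7 CPM (-0.19 ± 0.25 SE). Fasn, the fatty acid synthase, was at 30.8 and 34.1 CPM in the sham pair, against 41.6 and 32.3 CPM in the Ovx pair (0.19 ± 0.18 SE). Elovl6, which elongates palmitate, was at 58.3 and 43.3 CPM against 49.0 and 53.9 CPM (0.02 ± 0.18 SE). These last 3 overlapped between the groups, and the signs of Acaca and Elovl6 turned between settings.

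**Figure D4:**
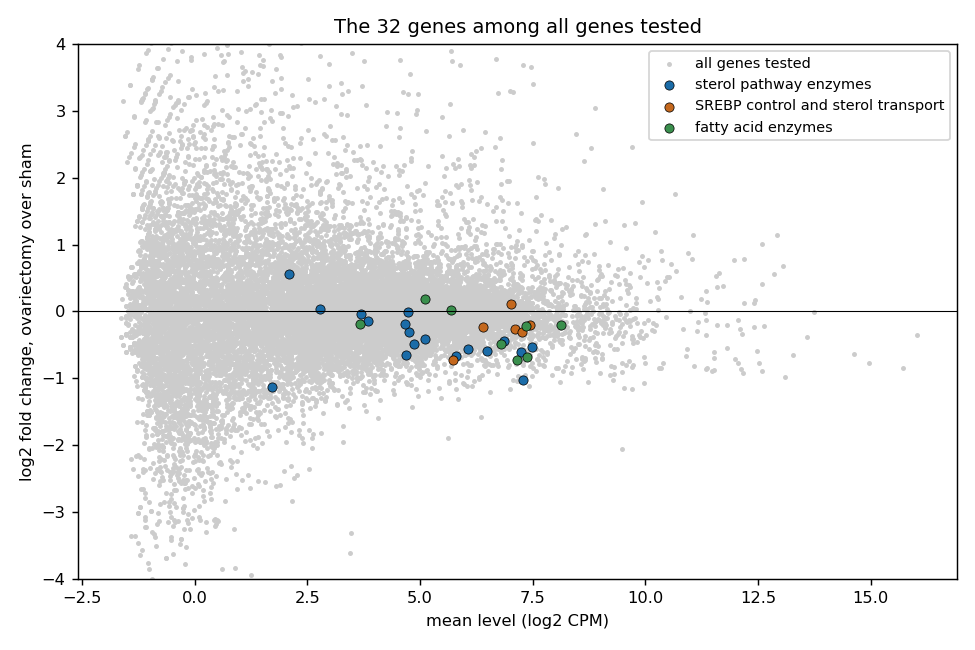
Log2 fold change (ovariectomy over sham) against mean level (log2 CPM) for all 17120 genes tested in grey, with the 32 genes in colour by subgroup; 252 genes beyond 4 log2 units lie outside the vertical axis. The coloured points lie mostly between 0 and -1 and at middle to high levels.

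The genes of neighbouring pathways held no edgeR call. Of 13 further genes of the SREBP pathway 0 passed in edgeR, with 1 lower and 1 higher at an unadjusted p under 0.05, and DESeq2 and limma-voom called 0. Their median log2 fold change was -0.06. The 2 with the smallest p were Me1, the malic enzyme that supplies NADPH, at 48.3 and 63.8 CPM in the sham pair, against 40.6 and 34.5 CPM in the Ovx pair (-0.58 ± 0.18 SE), and Elovl5, a fatty acid elongase, at 20.9 and 29.7 against 33.2 and 38.4 CPM (0.50 ± 0.21 SE). These 2 lay on opposite sides of sham, each without overlap.

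Of 11 genes of the LXR receptors and sterol export 0 passed in edgeR. At an unadjusted p under 0.05, 1 was lower and 1 higher. DESeq2 called 1 of the 11 higher, beside 5.43% of all genes tested, and limma-voom called 0. The median was 0.23. The gene called by DESeq2 was Ch25h, which makes 25-hydroxycholesterol, a sterol that holds SREBP cleavage back. Ch25h was at 0.847 and 1.11 CPM in the sham pair, against 3.97 and 4.83 CPM in the Ovx pair (2.16 ± 0.50 SE in edgeR). Its counts were 19 to 94 per library. Mylip, an LXR target that encodes a ubiquitin ligase, was at 43.8 and 37.0 CPM against 27.7 and 25.2 CPM (-0.61 ± 0.17 SE).

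Of 8 genes of the non-sterol isoprenoid branch and 10 of fatty acid oxidation 0 passed by edgeR, DESeq2 or limma-voom, with 0 and 1 genes at an unadjusted p under 0.05. Their medians were -0.14 and 0.07. The smallest p of the first list belonged to the prenyltransferase subunit Fnta (0.28 ± 0.16 SE) and to Pdss2 of ubiquinone synthesis (-0.59 ± 0.38 SE). In the second they belonged to the carnitine carrier Slc25a20, at 61.6 and 45.9 CPM in the sham pair, against 40.3 and 40.4 CPM in the Ovx pair (-0.41 ± 0.18 SE), and to Cpt1a, which commits fatty acids to oxidation, at 12.9 and 23.4 against 27.0 and 29.8 CPM (0.64 ± 0.29 SE).

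**Figure D5:**
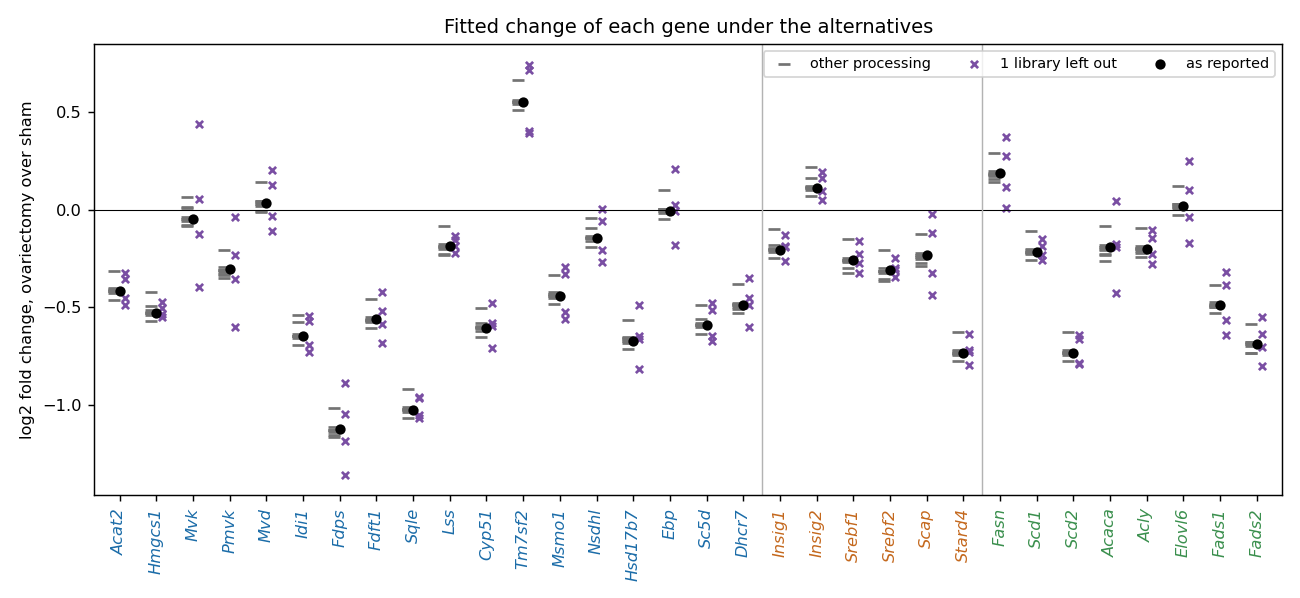
Fitted log2 fold change of each gene as reported (black), under other processing (grey dashes) and with 1 library left out (purple crosses). Sqle stays between -1.07 and -0.92, whereas Mvk moves from -0.40 to 0.44 as single libraries are left out.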

How the data were processed

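The authors deposited raw read counts per gene for 4 libraries. The submitters' processing notes name Trim Galore 0.6.6, featureCounts 2.0.1 and the build GRCm38 (mm10), with no order of steps. The sources used here give no aligner, annotation release or strand setting, so overlapping genes cannot be told apart. GENCODE M21 (GRCm38) gave symbols, positions and exon lengths for 55227 of 55487 IDs.

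Genes were kept by filterByExpr, scaled by TMM and compared in R 4.3.3 by edgeR 4.0.16 (quasi-likelihood F test, group alone), Benjamini-Hochberg adjusted over all genes tested. The SE is the log2 fold change divided by the square root of F. CPM are TMM-scaled and a single count is worth 0.0423 to 0.0519 CPM. TPM are counts per 1000 exon bases scaled to the same total in each library. Alternatives used DESeq2 1.42.0 and limma 3.58.1, other scalings and filters, a replicate block, left-out libraries and, added after seeing the data, a GC and length offset. The fit was tested on simulated data. Copies were sought with megablast at 95% identity over at least 100 bases, and genes overlapping at the same place were not left out.

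Members, gene lists and the rule for named genes were chosen with earlier results of these data known. The rule gives values in every library for called members, for members without overlap and a log2 fold change of at least 0.5 in size, and for the regulators, and names the 2 genes with the smallest p of each further list without calls.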

Additional observations from a re-analysis of the deposited data

How the results depend on the processing

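Of 414 member values under alternatives, 349 kept sign and side of the threshold, 33 gained a call, 11 lost one and 21 changed sign. A log2 fold change below 0 held for 23 of 32 members in every alternative they were fitted in, and one above 0 for 3 (Tm7sf2, Insig2 and Fasn). That is 13 alternatives, but 12 for Fdps and Tm7sf2, which dropped out at 5 CPM. Counting the reported fit, 11 members were called lower in at least 1 setting. Neither this count nor that of members keeping their sign is given over all genes here. The members called lower (4 as reported, beside 1.20% of all genes tested) numbered 2 with library totals (0.911%), 10 with DESeq2 (2.84%) and 8 with limma-voom (1.83%). They numbered 10 with no filter (1.51%) and 9 at a mean of 5 CPM (4.03%). All genes called (716) became 1416 with DESeq2, 1656 with no filter, 1103 at 5 CPM and 0 to 1835 with 1 library left out. With library totals the medians were -0.36 (sterol enzymes), -0.14 (control genes) and -0.10 (fatty acid enzymes), and with 1 library left out they ran from -0.54 to -0.39, -0.33 to -0.17 and -0.29 to -0.15. The cause of these shifts was not tested, and the left-out and filter settings also change the number of libraries or genes.

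Signs turned for Mvk with library totals (0.064), limma-voom (0.016) and the block (0.0067), for Ebp with library totals (0.10), limma-voom (0.0043), no filter (0.0029), the block (0.0052) and the GC and length offset (0.0037), for Mvd with upper-quartile scaling (-0.0087) and the offset (-0.0104), and for Elovl6 with upper-quartile scaling (-0.028). With 1 library left out, Mvk ran from -0.40 to 0.44, Ebp from -0.18 to 0.21, Mvd from -0.11 to 0.21, Elovl6 from -0.17 to 0.25, Nsdhl from -0.27 to 0.0028 and Acaca from -0.43 to 0.042.

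The libraries share only a replicate number. Deviations of same-numbered libraries correlated at r = 0.0043 across genes. The replicate block gave 8 members called lower, beside 1.92% of all genes tested, and 1074 genes called in all. Of the 25 members with a promoter window, 4% had the SRE core and 24% the shorter core.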
